A study of Homo sapiens with 3 samples.

Results

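Of the 25006 genes named on the array, 10 that code for inflammatory signals were followed here: the cytokines IL1A, IL1B, IL6 and LIF, the chemokines CXCL8, CXCL1, CXCL2, CXCL3 and CCL2, and the enzyme PTGS2. They were chosen by name, not by their values. The array carries 13 probes for them among 58201, and 12 of these probes, at least 1 for each of the 10 genes, were well above background in all 6 channels. Where a gene had 2 probes, the brighter one stands for the gene. U87 cells, an established human glioblastoma line, had been stably transfected with a fusion of green fluorescent protein and the type 1 insulin-like growth factor receptor (GFP-IGF1R, clone U87WT 5, Cy5) or with the same fusion changed at positions 1025, 1100 and 1120 (GFP-IGF1R1025x-1100x-1120x, clone U87Mut 5, Cy3), here called U87WT and U87Mut. The labels give the receptor as nuclear in U87WT and as non-nuclear in U87Mut on all 3 arrays, whatever the treatment, and the arrays do not measure where it was. RNA of both clones was hybridized together on 3 arrays, 1 per condition, after 24 h: serum-free medium, 50 nM IGF1, and 50 nM IGF1 with OSI906, an inhibitor of the kinases of IGF1R and of the insulin receptor. The labels give the dose of OSI906 as 0.5 μM in the sample name and as 500 μM in the description of the medium. For the arrays the study's text gives 0.5 μM. The preincubation with OSI906 is 24 h in the labels and 1 h in the study's text. Both groups are single clones selected with the antibiotic G418, the host cells keep their own IGF1R gene, and cells without a receptor vector were not analysed here. Each condition has a single array and each clone kept its dye, so a difference between the clones and the dye bias of a probe cannot be told apart, and values from 1 array carry no p.

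Inflammatory cytokines are small secreted proteins with which damaged, infected or malignant tissue signals to its surroundings. Transcription factors of the NF-kB family switch on many of their genes together, often along with AP-1 and C/EBP factors, and interleukin 1 acts through its receptor on the same factors, so that its own product feeds the loop. Glioma cells are known to secrete IL6, CXCL8 and CCL2, of which the first signals through STAT3 and the others attract neutrophils and monocytes.

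The start regions of some of these genes hold the letters of known motifs. The 6 stretches below are shown because IL1B, CXCL1 and CXCL2 had the largest differences between the OSI906 and the IGF1 array in U87WT, and because CXCL3, CXCL8 and IL6 are related to them in sequence or role. RefSeq promoters (GRCh38.p14) were given for 8 of the 10 genes, without CCL2 and LIF, as windows of 300 bases from 250 before the start to 50 after it. Printed are the 150 bases before the start, 5′ to 3′ along the gene. Capitals mark every match, on either strand, to GGGNNTTTCC (NF-kB), TGANTCA (AP-1) or TATAAA (the box that places the start), and no 2 of these matches overlap.
CXCL1, chr4:73869243-73869392, plus strand: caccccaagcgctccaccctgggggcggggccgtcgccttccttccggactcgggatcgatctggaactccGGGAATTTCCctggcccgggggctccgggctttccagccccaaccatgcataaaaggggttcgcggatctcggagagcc
CXCL2, chr4:74099196-74099345, minus strand: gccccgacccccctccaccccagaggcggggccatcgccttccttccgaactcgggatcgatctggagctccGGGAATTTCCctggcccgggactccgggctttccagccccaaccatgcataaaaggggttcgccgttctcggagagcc
CXCL3, chr4:74038690-74038839, minus strand: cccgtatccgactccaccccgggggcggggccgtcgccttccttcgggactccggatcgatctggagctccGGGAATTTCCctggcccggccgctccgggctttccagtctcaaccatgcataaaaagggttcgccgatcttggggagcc
IL6, chr7:22727050-22727199, plus strand: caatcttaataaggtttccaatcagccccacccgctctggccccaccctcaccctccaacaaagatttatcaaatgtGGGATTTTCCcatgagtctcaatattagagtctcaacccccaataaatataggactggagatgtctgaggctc
CXCL8, chr4:73740419-73740568, plus strand: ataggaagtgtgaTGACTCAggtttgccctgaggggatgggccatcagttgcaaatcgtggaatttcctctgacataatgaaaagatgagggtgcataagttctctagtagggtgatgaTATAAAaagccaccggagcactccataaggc
IL1B, chr2:112836780-112836929, minus strand: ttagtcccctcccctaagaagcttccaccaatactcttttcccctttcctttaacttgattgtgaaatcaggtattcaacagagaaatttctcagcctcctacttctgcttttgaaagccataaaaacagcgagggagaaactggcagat

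The NF-kB letters were found in 4 of the 8 genes with a promoter, against 1.91% of all 35116 promoters of the same length. In CXCL1, CXCL2 and CXCL3 the match read GGGAATTTCC and began 79, 78 and 79 bases before the start, and in IL6 it read GGGATTTTCC, 73 bases before the start. The AP-1 letters were found in CXCL8, 137 bases before the start, and in IL1A, against 7.71% of all promoters, and the TATA letters in CXCL8, IL1A and PTGS2, against 11.5%. IL1B held none of the 3 motifs in this window. Aligned with each other, the printed stretches of CXCL1 and CXCL2 shared 88.7% of 151 aligned columns and those of CXCL1 and CXCL3 88.1%, as these genes are near copies of each other that lie together on chromosome 4. The letters of the array probes were not given, so how far a probe for 1 of these chemokines also binds the RNA of its copies was not tested. A match of letters is a description and not a site of binding.

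Spots of the 3 arrays were not saturated, and per array 50.1% to 52.8% of probes passed the scanner's test for signal over background in each channel. The spread of a probe's log2 ratio between the serum-free and the OSI906 array, over the 27223 probes well above background in all 6 channels, corresponded to an SD of 0.143 per array. Among probes of like brightness it was from 0.120 (CXCL8) to 0.183 (LIF) for the brightest probes of the 10 genes. This is only a rough guide to error for genes with 1 spot, as it also holds real differences in response and leaves out the IGF1 array. IGF1R itself had clone log2 ratios of 0.07, 0.23 and 0.09 in serum-free medium, IGF1 and IGF1 with OSI906. Of 9 markers of U87 glioma cells, 7 were well above background in all 6 channels, while GFAP was in none and S100B in 2. Of the markers of other cells, 3 of 9 for microglia and macrophages, 2 of 5 for endothelial cells and 1 of 3 for T and B cells were well above background in all 6 channels (PTPRC, CD14, CSF1R, CDH5, VWF and CD2), AIF1 and ITGAM were in 4, CD3E was in 3, and CD163, P2RY12, TREM2, MS4A1 and CLDN5 were in 0. Over 9 markers of microglia and macrophages the summed scanned intensity minus background was 805.5 to 1086.5 in U87WT and 363.5 to 770 in U87Mut. It was 37 to 52.5 and 25.5 to 35.5 over 5 endothelial markers. Over 3 markers of T and B cells it was 985.5 to 1424.5 and 185 to 343.5. Over the 9 markers of U87 glioma cells it was 181983 to 199771.5 in U87WT and 74804 to 104968 in U87Mut. CSF1R (log2 ratio 0.55, 0.62 and 0.72 on the 3 arrays) and CD2 (1.97, 1.95 and 1.80) were the markers of these lists past 0.5 on every array. Their part in the results was not tested. In RNA of whole cultures, fewer cells of a type and less RNA per cell cannot be told apart.

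In the following, a level is the normalized log2 intensity of 1 clone on 1 array, a clone log2 ratio is U87WT minus U87Mut on the same array, and a value past 0.5 in either direction is counted. Levels of different genes come from different probes and are not compared.

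**Figure D1:**
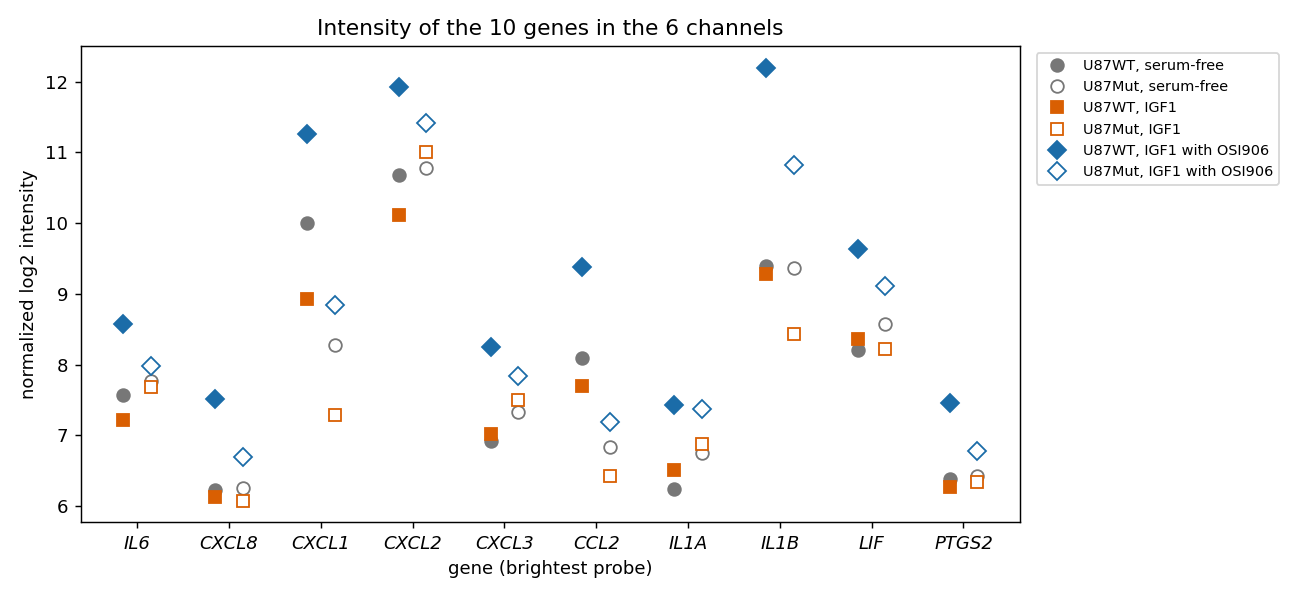
Normalized log2 intensity (vertical axis) of the brightest probe of each of the 10 genes (horizontal axis) in U87WT (filled) and U87Mut (open) on the serum-free, IGF1 and IGF1 with OSI906 arrays, 1 value per clone and array and so no error bar. For every gene the highest of the 3 values of each clone is that with OSI906, from 7.42 for IL1A to 12.20 for IL1B in U87WT. Levels are to be compared within a gene only.

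Both interleukin 1 genes had their highest level with OSI906 in each clone, but the clones differed then in IL1B and not past the limit in IL1A. IL1B codes for the secreted form that is released after cleavage. Its level in U87WT was 9.40 in serum-free medium, 9.28 with IGF1 and 12.20 with IGF1 and OSI906, and in U87Mut 9.36, 8.43 and 10.82. U87WT with OSI906 was the highest and U87Mut with IGF1 the lowest of the 6 channels. From IGF1 to IGF1 with OSI906 the level was 7.58-fold higher in U87WT and 5.22-fold higher in U87Mut, the largest difference of any of the 10 genes in either clone. The clone log2 ratio was 0.04, 0.84 and 1.38, so the clones were level in serum-free medium and U87WT was 2.61-fold higher with OSI906. IL1A codes for the form that is active without cleavage and often stays with the cell. It had levels of 6.25, 6.51 and 7.42 in U87WT and 6.75, 6.88 and 7.38 in U87Mut. It was the member with the clones nearest to each other with OSI906, at a ratio of 0.04, after -0.51 in serum-free medium and -0.36 with IGF1.

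IL6 and LIF code for cytokines that share the receptor chain IL6ST and act through STAT3. IL6 had levels of 7.57, 7.21 and 8.58 in U87WT and of 7.77, 7.68 and 7.98 in U87Mut. Its clone ratio changed sign, from -0.19 and -0.47 to 0.60, as U87WT was 2.58-fold and U87Mut 1.23-fold higher with IGF1 and OSI906 than with IGF1. LIF had levels of 8.20, 8.37 and 9.64 in U87WT and of 8.58, 8.22 and 9.11 in U87Mut. Its clone ratio was -0.38, 0.15 and 0.53. A second, dimmer LIF probe gave ratios of -0.03, 0.02 and 0.22, and its U87Mut channel was not well above background on the IGF1 array.

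CXCL1, CXCL2, CXCL3 and CXCL8 code for chemokines that draw neutrophils through the receptor CXCR2. CXCL1 had the widest range of the 10 genes over the 6 channels, with levels of 10.00, 8.92 and 11.25 in U87WT and 8.27, 7.28 and 8.85 in U87Mut. By this probe every value of U87WT lay above every value of U87Mut, and in each clone IGF1 was lowest and OSI906 highest. U87WT was 3.32-fold higher than U87Mut in serum-free medium, 3.11-fold with IGF1 and 5.31-fold with IGF1 and OSI906 (log2 ratios 1.73, 1.64 and 2.41). The second CXCL1 probe kept this order of arrays with smaller ratios of 0.85, 0.37 and 1.38, and by it the clones overlapped, as U87WT with IGF1 (7.27) lay below U87Mut with OSI906 (7.75). CXCL2 did not follow it. Its levels were 10.68, 10.12 and 11.93 in U87WT and 10.78, 11.01 and 11.42 in U87Mut, and the clone ratios were -0.11, -0.89 and 0.51. With IGF1, U87Mut was therefore the higher clone, and with OSI906 U87WT was. Its second probe gave -0.21, -0.91 and 0.38.

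CXCL3 had levels of 6.91, 7.01 and 8.25 in U87WT and 7.33, 7.50 and 7.83 in U87Mut, with ratios of -0.42, -0.49 and 0.42 that stayed inside the limit on every array. CXCL8, also known as interleukin 8, was dim. Its levels were 6.23, 6.13 and 7.51 in U87WT and 6.26, 6.08 and 6.70 in U87Mut. The clone ratio of CXCL8 was -0.03, 0.05 and 0.81, so the clones differed past the limit with OSI906 and were level without it. With an offset of 0 these ratios were -0.09, 0.22 and 1.32.

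CCL2, which attracts monocytes through the receptor CCR2, is the gene among the 10 whose probe is printed at 10 places of the array. Its levels were 8.09, 7.69 and 9.38 in U87WT and 6.84, 6.43 and 7.18 in U87Mut, again without overlap between the clones. The log2 ratio was 1.26 ± 0.100 (SD, 9 spots) in serum-free medium, where 1 of the 10 spots was marked as uneven or as an outlier and left out. It was 1.27 ± 0.0613 (10 spots) with IGF1 and 2.19 ± 0.0806 (10 spots) with IGF1 and OSI906. The lowest spot with OSI906, at 2.08, lay above the highest spots of the other arrays, at 1.42 and 1.35. Spots of 1 array share their RNA, so these SDs hold the error of printing and scanning and not that between cultures. The U87Mut signal was close to background on the IGF1 array, and the gap between arrays depended on the offset. With an offset of 0 the ratios on the 3 arrays were 1.72, 2.29 and 2.73, and by the scanner's processed signals 1.94, 2.52 and 2.84.

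**Figure D2:**
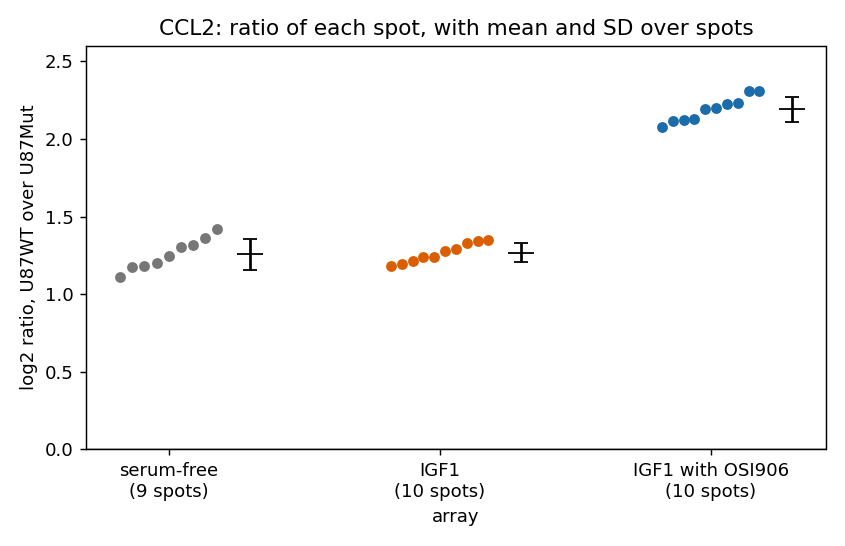
Clone log2 ratio (U87WT over U87Mut, vertical axis) of each CCL2 spot on the 3 arrays (horizontal axis), ordered by value within an array, with the mean and SD over spots beside them. With the offset of 50, the 10 spots with IGF1 and OSI906 lie between 2.08 and 2.31, above all spots of the serum-free array (1.11 to 1.42) and the IGF1 array (1.18 to 1.35).

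PTGS2 codes for cyclooxygenase 2, the inducible enzyme that starts the synthesis of prostaglandins. It had levels of 6.38, 6.28 and 7.46 in U87WT and 6.43, 6.34 and 6.78 in U87Mut. The clones were level in serum-free medium and with IGF1 (ratios -0.05 and -0.06), and with OSI906 U87WT was 1.61-fold higher (0.68). PTGS2 was close to background, and with an offset of 0 its ratios were -0.14, -0.18 and 1.10.

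Set against each other on each array, the clones differed in these genes most with OSI906. In serum-free medium 2 of the 10 genes, CXCL1 and CCL2, were above 0.5 and 1, IL1A, was below -0.5, against 4.73% and 4.72% of the 27223 probes well above background in all 6 channels. With IGF1, 3 genes were above (CXCL1, CCL2 and IL1B) and 1 below (CXCL2), against 5.26% and 3.65%. With IGF1 and OSI906, 8 genes were above and 0 below, against 4.58% and 4.21%, and the remaining genes were CXCL3 and IL1A. The median ratio over the 10 genes was -0.077, -0.0057 and 0.64 on the 3 arrays, where the median of these probes lay at -0.011, 0.0050 and -0.0035. The ratios on the IGF1 array depended on how the background was fitted. With the spots marked as not uniform in the fit, CXCL1 was at 0.54, CCL2 at 0.23 and IL1B at 0.24 there, while their ratios on the OSI906 array stayed at 2.41, 2.19 and 1.38.

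**Figure D3:**
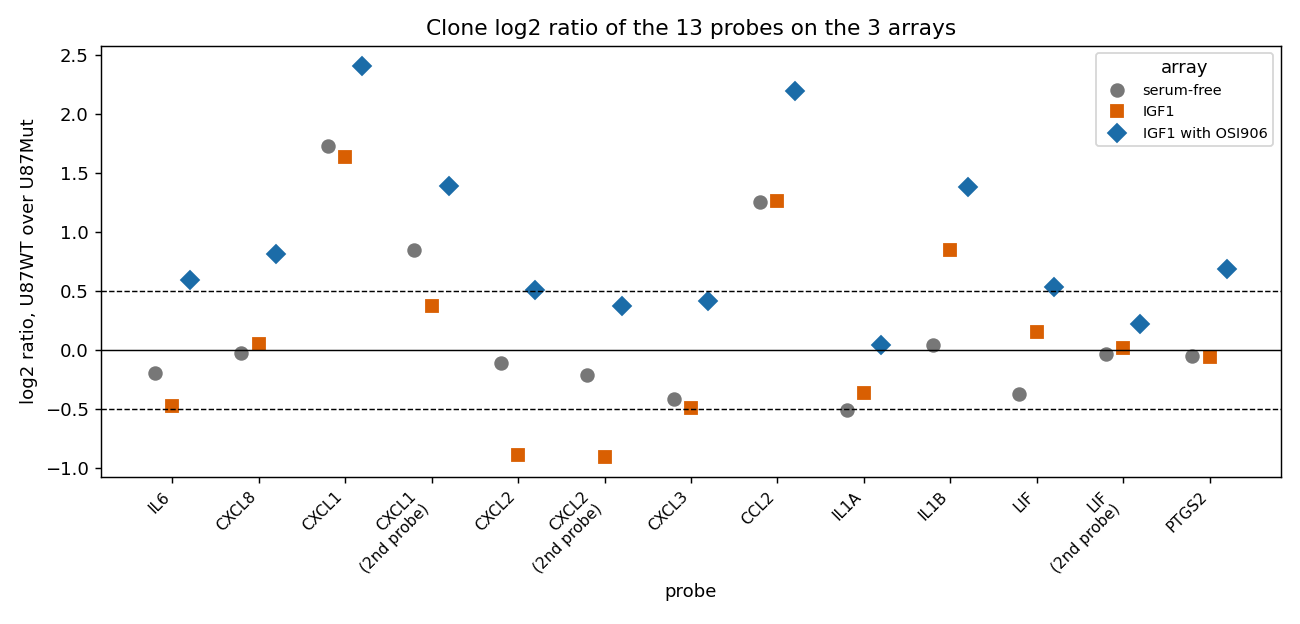
Clone log2 ratio (U87WT over U87Mut, vertical axis) of the 13 probes of the 10 genes (horizontal axis) on the 3 arrays, with 1 value per probe and array and dashed lines at -0.5 and 0.5. For all 13 probes the ratio with IGF1 and OSI906 (diamonds) is the highest of the 3, from 0.04 for IL1A to 2.41 for CXCL1.

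Over the 3 arrays, limma with Benjamini-Hochberg adjustment over 58201 probes called CXCL1 and CCL2 higher in U87WT and none of the 10 genes lower, against 4.47% of all probes called higher and 4.31% called lower. CXCL1 had a mean log2 ratio of 1.93 (SE 0.161, adjusted p = 0.00672 by limma, higher on 3 of 3 arrays), and CCL2 1.57 (SE 0.204, adjusted p = 0.0171 by limma, higher on 3 of 3 arrays). IL1B, at 0.75 (SE 0.255), had an adjusted p of 0.184 by limma, and the second CXCL1 probe had an adjusted p of 0.0672 by limma. With IL1B, 3 of the 10 genes had an unadjusted p under 0.05 in limma, against 12464 of all 58201 probes. The arrays are different conditions, so the shift with OSI906 adds to the error of this test. Without the serum-free array, the adjusted p in limma was 0.0539 for CCL2 and 0.0492 for IL1B, and neither CXCL1 nor CCL2 was called with the background fitted on all spots, where their mean log2 ratios were 1.55 and 1.21 (adjusted p = 0.237 and 0.346 by limma).

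OSI906 under IGF1 went with higher levels of all 10 genes in U87WT. From the IGF1 array to the array with IGF1 and OSI906, 10 of 10 were above 0.5 and 0 below -0.5 in U87WT, against 3.63% and 2.91% of probes, with differences from 0.91 (IL1A) to 2.92 (IL1B). In U87Mut 6 of 10 were above 0.5 and 0 below, against 1.5% and 0.955%. These were IL1B (2.38), CXCL1 (1.56), LIF (0.89), CCL2 (0.76), CXCL8 (0.62) and, barely past the limit, IL1A (0.501). The other 4 lay between 0.30 (IL6) and 0.44 (PTGS2). The median difference was 1.37 in U87WT and 0.56 in U87Mut, where the probes well above background in all 6 channels had -0.012 and 0.0049. Measured from the serum-free array, which shares the OSI906 array with the comparison above, 10 of 10 genes were again above 0.5 in U87WT (2.35% of probes, and 1.62% below -0.5) with 1.00 (IL6) as the smallest difference. In U87Mut 6 of 10 were above (0.558%, and 0.566% below), from 0.50 (CXCL3) to 1.46 (IL1B). Without normalization between the arrays, that last count was 1 of 10, and the median of the probes well above background in that comparison moved to -0.17.

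**Figure D4:**
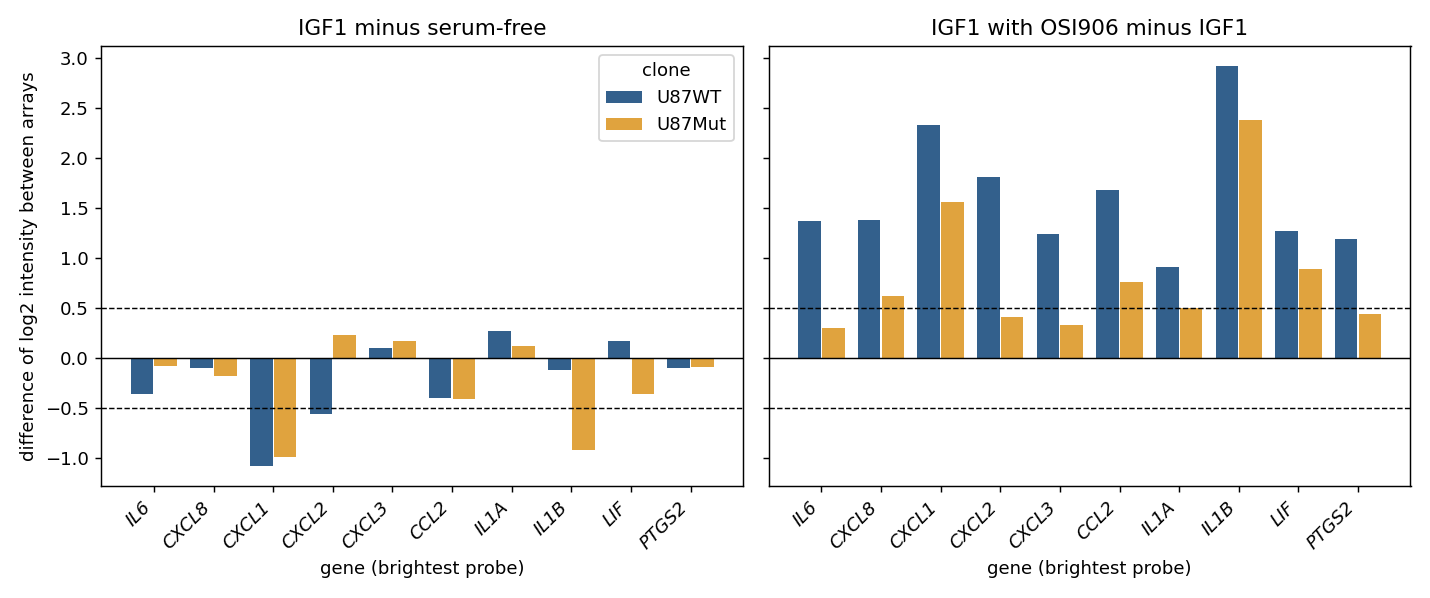
Difference of normalized log2 intensity between arrays (vertical axis) for the 10 genes (horizontal axis) in U87WT and U87Mut, left from serum-free medium to IGF1 and right from IGF1 to IGF1 with OSI906, with 1 value per bar, no error bar and dashed lines at -0.5 and 0.5. On the right all bars are above 0 and that of U87WT is the longer for each gene, while on the left CXCL1 falls below -0.5 in both clones (-1.08 and -0.99).

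IGF1 alone went with smaller and mixed differences. From serum-free medium to IGF1, 0 genes were above 0.5 and 2 below -0.5 in each clone, against 1.88% and 2.1% of probes in U87WT and 0.933% and 1.16% in U87Mut. CXCL1 was below in both clones, by -1.08 in U87WT and -0.99 in U87Mut, which is 0.473-fold and 0.503-fold of the serum-free level. The other genes below were CXCL2 in U87WT (-0.56, where U87Mut had 0.23) and IL1B in U87Mut (-0.93, where U87WT had -0.12). PTGS2 had -0.10 in U87WT and -0.09 in U87Mut.

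The change of the clone ratio from array to array compares the responses of the clones directly, and a dye bias that is the same on every array cancels in it. From serum-free medium to IGF1 with OSI906 the ratio shifted towards U87WT by more than 0.5 in 10 of 10 genes, against 1.47% of probes (and 0 genes against 0.86% below -0.5). By the brightest probes, the smallest shifts were 0.55 (IL1A) and 0.61 (CXCL2), and the largest were 0.93 (CCL2) and 1.34 (IL1B). The second probes gave smaller shifts, of 0.25 for LIF, 0.54 for CXCL1 and 0.59 for CXCL2. Over the probes well above background in all 6 channels this shift had an SD of 0.202, and the median over the 10 genes was 0.81 against 0.0073. From IGF1 to IGF1 with OSI906 it was above 0.5 in 8 of 10 genes, against 2.76% (0 genes and 2.82% below), with CXCL2 (1.40) and IL6 (1.07) highest and LIF (0.38) and IL1A (0.41) inside the limit. From serum-free medium to IGF1, 2 genes shifted above 0.5 (IL1B by 0.81 and LIF by 0.53) and CXCL2 below -0.5 (-0.78), against 2.69% and 2.16%. These shifts share arrays with each other, and with 1 array per condition no test of them was possible.

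Of 26 NF-kB factors, kinases and feedback genes, 25 had a probe. From IGF1 to IGF1 with OSI906, 8 of the 25 were above 0.5 in U87WT, against 3.63% of probes, and 5 in U87Mut, against 1.5%, with 0 below in either, and the list medians were 0.25 and 0.20, against -0.012 and 0.0049. The clone ratio was above 0.5 for 4, 6 and 8 of them on the 3 arrays, against 4.73%, 5.26% and 4.58% of probes, and below -0.5 for 2, 1 and 0, against 4.72%, 3.65% and 4.21%. The feedback inhibitors NFKBIA and TNFAIP3 were above 0.5 on every array. Others of the list, named after their values were seen, were not. NFKBIB had -0.33, 0.08 and 0.04, NFKBIE 0.002, 0.39 and 0.61, and TNIP1 -0.07, 0.15 and 0.41. NFKBIA, which holds NF-kB in the cytoplasm, had log2 ratios of 1.09, 1.11 and 1.30, and TNFAIP3, which shuts the pathway off, had 1.18, 0.93 and 1.26 (adjusted p = 0.00278 and 0.00407 by limma). ICAM1, an adhesion molecule, had 1.55 in serum-free medium and 1.96 with OSI906 (adjusted p = 0.00331 by limma). On the IGF1 array its U87Mut channel was not well above background, and U87WT was at least 3.04-fold higher, from log2 intensities of 7.70 and 6.09.

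**Figure D5:**
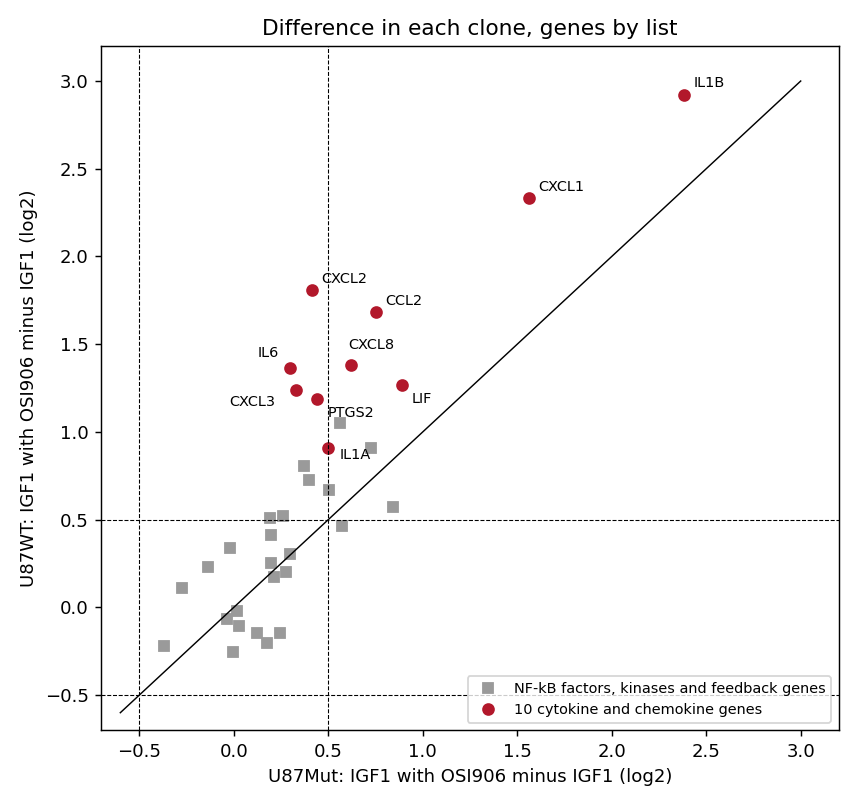
Difference from the IGF1 array to the array with IGF1 and OSI906 in U87Mut (horizontal axis, log2) and U87WT (vertical axis, log2) for the 10 genes (circles, named) and the 25 NF-kB factors, kinases and feedback genes (squares), 1 value per gene and clone, with dashed lines at -0.5 and 0.5 and the line of equal difference. All 10 circles lie above the line of equal difference, and IL1B (2.38 and 2.92) and CXCL1 (1.56 and 2.33) lie farthest out.

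Of 21 other cytokines, 2 were above 0.5 with OSI906 against IGF1 in U87WT, against 3.63% of probes, and 1 in U87Mut, against 1.5%. IL24, a cytokine of the interleukin 10 family, had clone ratios of 0.93, 0.99 and 1.97 (adjusted p = 0.0343 by limma), with differences under OSI906 of 1.33 in U87WT and 0.36 in U87Mut. CSF3, the growth factor of granulocytes, is named after its values were seen: it had clone ratios of -0.44, 0.15 and 1.55 and differences of 2.45 and 1.05. GDF15, a stress-induced cytokine, was lower in U87WT on every array (-1.56, -1.15 and -1.42, adjusted p = 0.00376 by limma). Of 18 other chemokines, 16 had a probe, 8 of these were well above background in no channel and 4 in all, and 0 were past 0.5 with OSI906 in either clone. CXCL5, a relative of CXCL1, had clone ratios of 0.69, 0.96 and 0.87 (adjusted p = 0.00492 by limma).

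Of 15 receptors and decoys, 6 were well above background in no channel, among them CXCR1, CXCR2 and CCR2, the receptors of the chemokines above. With OSI906 against IGF1, 3 of the 15 were above 0.5 in U87WT and 2 in U87Mut. For these and the next lists, the shares over probes well above background in all 6 channels were 3.63% above and 2.91% below in U87WT. In U87Mut they were 1.5% and 0.955%. The lists also hold genes outside that set of probes. The 2 genes above in both clones, named after their values were seen, belong to the interleukin 1 system: the receptor IL1R1 (1.49 and 0.85) and the receptor antagonist IL1RN (1.39 and 1.03). Of 14 prostaglandin genes with a probe, 2 were above in each clone and 1 below in U87WT. The prostaglandin E2 receptor PTGER2 had clone ratios of 1.04, 1.25 and 1.48 and the prostaglandin D2 synthase PTGDS 1.66, 1.30 and 1.38 (adjusted p = 0.00467 and 0.00336 by limma). In the STAT3 arm downstream of IL6 and LIF, 0 of 10 genes were above 0.5 with OSI906 in either clone and 1 was below in U87WT, the feedback inhibitor SOCS3 at -0.65, named after its values were seen. BCL6, a transcriptional repressor of that list, had clone ratios of 0.76, 0.96 and 0.61 (adjusted p = 0.00845 by limma).

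Among 15185 other genes, those whose 6 levels, each centred on the mean of its probe, lay nearest to CXCL1 by Euclidean distance were TMEM119, the matrix proteoglycan DCN, the laminin chain LAMA4, RIPOR3 and the secreted matricellular protein CCN5, at distances of 0.854 to 1.13. Their clone log2 ratios ran from 1.16 (CCN5 with IGF1) to 3.22 (DCN with OSI906). All 5 were higher in both clones with OSI906 than with IGF1, by 1.26 (TMEM119) to 2.03 (DCN) in U87WT and by 0.75 (DCN) to 1.34 (CCN5) in U87Mut. The 5 genes were picked for their likeness to CXCL1 in these 6 channels, so their directions follow from the choice. The channels come from 3 arrays, and this likeness is a description.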

How the data were processed

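RNA of U87WT (Cy5) and U87Mut (Cy3) had been hybridized together to Agilent human gene expression arrays, 3 arrays for 3 conditions, on 1 slide and in 1 scan. The deposited scanner files give, for every spot and its surroundings, the median intensity in each channel before any normalization. They also hold intensities processed by the scanner software with, per the file headers, their log10 ratio (Cy5 over Cy3), used as log2 in an alternative. A table of log2 ratios made by the authors was deposited too, which their Methods describe as corrected and normalized with limma; their columns have medians of -0.0066, -0.0074 and -0.0030, and within each array they correlated with the log10 ratio of the scanner at r = 0.903, 0.43 and 0.923. Their limma version is not given in the sources used here.

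Here the background was corrected by normexp (offset 50) with limma 3.58.1 (R 4.3.3), fitted without spots marked as not uniform (384, 572 and 5 on the serum-free, IGF1 and OSI906 arrays), which were left out together with population outliers. Arrays were normalized within by loess and between by Aquantile, and spots of a probe were averaged. With all spots in the fit, the estimated SD of the Cy5 background on the IGF1 array was 701 instead of 1.32. Gene names were taken by RefSeq transcript (GRCh38.p14) for 34892 probes, and the brightest probe stands for a gene. Clone differences over the 3 arrays were tested with limma (intercept only, Benjamini-Hochberg at 5% over all probes), a step tested on simulated data, and all other counts are by size (0.5 on the log2 scale). The bound for a channel not well above background used the higher of the probe's own level and the lowest level of any probe well above background there. The number of arrays limits the precision.

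Named were all 10 genes with every probe, up to 4 genes of each other list past 0.5 the same way on all 3 arrays, and the 5 genes nearest in pattern, and any other gene is named as chosen after its values were seen or as a marker of another cell type or an undetected receptor. The genes and lists were chosen with earlier results of these data known, and 1 cell type marker is not reported here. The alternatives tried were other background fits and offsets, the scanner's processed signals, median or scale normalization, other or no normalization between arrays, the deposited ratios, a limit of 0.5 SD of each array, the mean of all probes, and leaving out each array. Figures were drawn with matplotlib.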

Additional observations from a re-analysis of the deposited data

How the results depend on the processing

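Of 26 counts of the 10 genes, 15 stayed within 1.5 times under every alternative run for them. Most of these 15 were counts of 0 that stayed at 0, and most of the counts above 0 moved. Among the stable counts above 0, the number of genes above the limit with IGF1 and OSI906 ran from 6 to 9 (8 in the report). The number above 0.5 in U87WT from IGF1 to IGF1 with OSI906 ran from 9 to 10, as did the number whose clone ratio shifted above 0.5 from serum-free medium to IGF1 with OSI906. No called value changed sign. Below the limit in serum-free medium (1 gene in the report) were 0 genes with the background fitted on all spots, 2 with an offset of 0, an offset of 20, no background correction, the scanner's processed signals or the deposited table, 3 with median normalization and 4 at a limit of 0.5 SD of each array (0.113, 0.113 and 0.108). Above the limit with IGF1 (3) was 1 gene with the fit on all spots and 1 in the deposited table. Below it with IGF1 (1) were 4 with an offset of 0 or 20, no background correction, the scanner's signals or the limit of 0.5 SD, and 0 with median normalization. The limma calls (2) were 0 with the fit on all spots, the scanner's signals, median normalization and the deposited table. They were 2 without each array in turn. CXCL1 was called without each array (adjusted p from 0.00393 to 0.0429 by limma). The other gene called was CCL2, except without the serum-free array. There it was IL1B (adjusted p = 0.0492 by limma), and CCL2 was not called (adjusted p = 0.0539 by limma). From serum-free medium to IGF1, 4 genes were below -0.5 in U87WT (2) without normalization between arrays, with the fit on all spots and with an offset of 0, which also put 1 gene above 0.5 (0); in U87Mut (2) 4 were below without normalization between arrays and with an offset of 0. From IGF1 to OSI906 in U87Mut (6), 3 were above with the fit on all spots and 7 with an offset of 0. With quantile normalization of all channels or without normalization between arrays 5 were above, where IL1A was at 0.490 and 0.499.

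Settings added after the data were seen covered the comparison of OSI906 with serum-free medium and the shift of the clone ratio. In U87Mut (6), 1 gene was above 0.5 without normalization between arrays and 2 with the fit on all spots. The clone ratio shifted above 0.5 from serum-free medium to IGF1 (2) in 0 genes with the fit on all spots and in 1 in the deposited table or with the mean of all probes, and below -0.5 (1) in 3 with the fit on all spots and in the deposited table and in 0 with median normalization. Without normalization between arrays the median of the probes well above background from serum-free medium to IGF1 moved to -0.15 in U87WT and -0.17 in U87Mut. Apart from the fit of the background on all spots, whose fitted SD is given above, the cause of these changes was not tested.

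Over all probes, limma called 2601 higher and 2506 lower in U87WT, but 155 and 520 with the fit on all spots, 420 and 275 with an offset of 0, 179 and 606 in the deposited table, 1106 and 796 without the serum-free array, 363 and 312 without the OSI906 array, and 0 and 0 with the scanner's signals (10128 at an unadjusted p under 0.05) or median normalization (5182). The limma test already compares the clones within each array. Between conditions, no paired analysis was possible because each condition has 1 array. IL1A, CXCL8, PTGS2, the second LIF probe and, on the IGF1 array, the U87Mut signal of CCL2 lie close to background, where the offset shrinks ratios.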
